A study of Mus musculus with 23 samples.

Results

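Brown adipose tissue (BAT) takes part of the fuel for heat production from the blood, as fatty acids freed from circulating triglyceride. The 10 genes described here act along that route: Lpl, Gpihbp1 and Angptl4 (lipolysis of lipoproteins in the capillary), Cd36, Slc27a1 and Slc27a2 (uptake into the cell), Fabp3 and Fabp4 (binding of fatty acids in the cytosol), and Acsl1 and Acsl5 (activation to acyl-CoA). They were taken by gene symbol from the table of normalised read counts, and all 10 are among its 14651 genes. After 6 h at 4°C, 5 of the 10 were higher in both genotypes (Lpl, Gpihbp1, Cd36, Slc27a2 and Fabp3) and Slc27a1 was lower in both. Angptl4 was lower in control mice, and Fabp4, Acsl1 and Acsl5 did not pass the test in either genotype. Over all 14651 genes, 46.0% passed it between 4°C and RT in control and 43.3% in knockout mice. Between the genotypes none of the 10 passed it.

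As background, lipoprotein lipase is made by adipocytes and carried by GPIHBP1 across the endothelium to the capillary lumen, where it splits triglyceride in chylomicrons and very low density lipoproteins. ANGPTL4 inactivates the lipase. The freed fatty acids enter the cell with the help of CD36 and the fatty acid transport proteins, are held by fatty acid binding proteins, and are joined to coenzyme A by acyl-CoA synthetases before they are oxidised or stored. Brown fat is known to draw heavily on this route in the cold.

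RNA was sequenced from the BAT of 23 male C57BL/6 mice aged 8 to 12 weeks. Control mice were Mcu[fl/fl] without Cre, and BAT-Mcu-KO mice (below, knockout mice) were Mcu[fl/fl] with Ucp1-Cre, so both genotypes carried the floxed alleles of Mcu, the pore subunit of the mitochondrial calcium uniporter. The Ucp1 promoter drives the Cre, so that the deletion is aimed at cells that express Ucp1 and not at the endothelial, immune or muscle cells of the depot. There were 6 control and 6 knockout mice at room temperature (RT), and 5 control and 6 knockout mice kept for 6 h at 4°C. Mice were kept in groups with chow before the experiment, and the food and housing of the RT mice during these hours are not given in the sources used here. The mice at 4°C were alone in cages that held water but no bedding, and by the general protocol they had no food. Cold and any difference in food or housing therefore cannot be told apart here, and "cold" below stands for all of them.

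The libraries held 7129271 to 21006347 reads, and every library had at least 886 reads of each of the 10 genes. Mcu was at 70.8 to 136 normalised counts in control mice and at 15.2 to 42.4 in knockout mice, with no overlap. All 10 listed markers of brown adipocytes were present, and Ucp1 was at 50590 to 70028 at RT and at 140889 to 198043 at 4°C. Skeletal muscle transcripts set libraries apart: the summed normalised count of 12 muscle markers ran from 14.9 to 62909.5, and it was over 30000 in 2 control mice at 4°C and 3 knockout mice at RT. Values without these 5 mice are given where a result turns on them.

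Promoter sequence was at hand for 6 of the 10 genes (9 windows, 250 bases before to 50 after a RefSeq transcription start, GRCm38.p6). The entries are those of Slc27a1, Slc27a2, Cd36, Fabp3, Acsl1 and Acsl5. The windows were searched on both strands for the core element that nuclear receptors such as the PPARs bind, AGGTCA, for 2 copies of it in the same direction with any 1 base between them (DR1, the form bound by PPAR with RXR), and for the cAMP response element TGACGTCA. The core element was in the windows of Cd36 and Slc27a2, 2 of the 9, and in 16.3% of all 32851 windows. Fabp3, which like them was higher in the cold in both genotypes, had no match in its window. The exact DR1, in 0.0396% of all windows, and the cAMP element, in 1.79%, were in none of the 9. The DR1 contains the core element, so that these searches are not independent. The stretches below show where the core element lies, in capitals as its reverse complement, 5′ to 3′ on the strand of the gene.
Cd36, chr5:17836027-17836146, minus strand: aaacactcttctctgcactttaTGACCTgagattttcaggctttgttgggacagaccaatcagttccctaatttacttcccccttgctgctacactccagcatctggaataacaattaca
Slc27a2, chr2:126552792-126552821, plus strand: gcaccacgccttTGACCTtttcaacgtggg
The core element begins 228 bases before the RefSeq start of Cd36 and 220 before that of Slc27a2. In GENCODE M21 the first stretch lies in an intron of longer Cd36 transcripts, and the second in the 5′ untranslated part of the first exon of Slc27a2.

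To compare levels between genes, normalised counts were divided by the length of the principal transcript. Reads were counted over all annotated exons of a gene, which together can be much longer. For Lpl the exons cover 10478 bp against 4115 bp for that transcript, for Fabp4 4489 against 896 and for Cd36 3590 against 3399. The order of genes and the size of ratios between them therefore depend on the length chosen. Changes of a gene or ratio with temperature do not. In control mice at RT Fabp4 stood far above the rest, at 80877 ± 15439 normalised counts per kb (SD, n = 6). Lpl followed at 14631 ± 1174, Cd36 at 10657 ± 572 and Acsl1 at 7941 ± 883, and the mice of these 4 genes did not overlap from one to the next in the order. Fabp3 was at 2746 ± 878 and Gpihbp1 at 2038 ± 333, with overlapping values. The last 4 in the order, each overlapping with the next, were Slc27a2 at 1346 ± 177, Slc27a1 at 1325 ± 170, Angptl4 at 996 ± 152 and Acsl5 at 924 ± 241. After 6 h in the cold the first 7 places were unchanged in control mice, while Slc27a1 moved to the last place with 612 ± 271 normalised counts per kb (SD, n = 5). Together the 10 genes took 1.73% ± 0.106 of all normalised counts in control mice at RT and 2.23% ± 0.206 at 4°C, and in knockout mice 1.65% ± 0.107 and 2.30% ± 0.109.

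**Figure D1:**
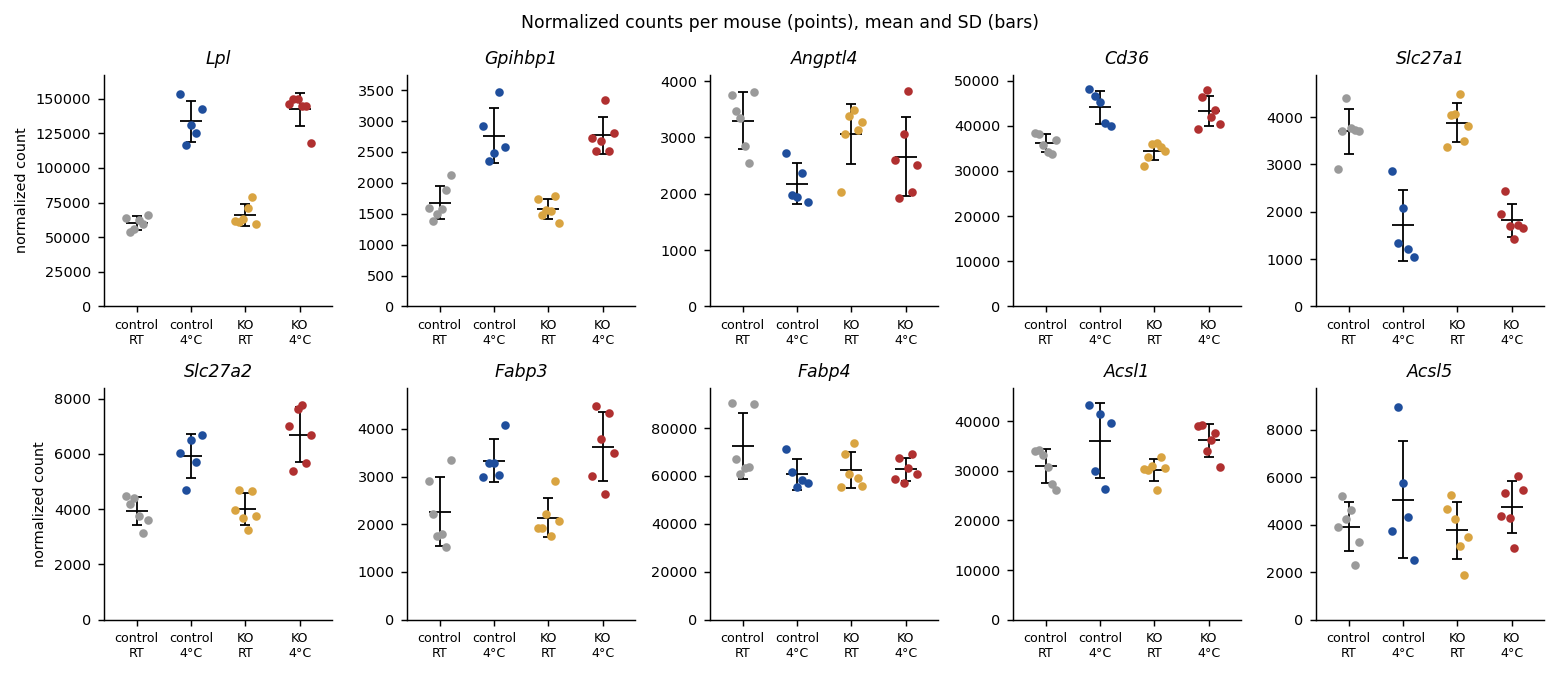
Normalised counts (linear axes from 0) of the 10 genes in each of the 23 mice, with the mean and SD of each of the 4 groups. For Lpl, Gpihbp1, Cd36, Slc27a2 and Slc27a1 the mice at 4°C and at RT do not overlap within a genotype, while the genotypes overlap for each gene.

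The first question was how each gene stood after 6 h of cold, within each genotype. All changes below are differences of log2(normalised count + 1) between 4°C and RT from limma, given with their standard error (SE), and a gene was called at an adjusted p under 0.05 over all 14651 genes. In control mice 7 of the 10 genes were called, 5 higher and 2 lower. Over all genes 46.0% were called, 22.3% higher and 23.7% lower. In knockout mice 6 of the 10 were called, 5 higher and 1 lower, against 43.3% of all genes, 21.4% higher and 21.9% lower. The median change of the 10 was 0.28 in control and 0.35 in knockout mice, against -0.02 for all genes in both. For 5 of the 10 the 4°C and RT mice did not overlap in either genotype, where 25.2% of all genes did not overlap in control and 24.2% in knockout mice. The same 6 genes were called in both genotypes in the same direction, and the share of all genes that did so was not counted. With libraries scaled to their 75th percentile, the median of all genes in control mice shifted to -0.13 and 38.2% of the called genes were higher, against 48.5% with the authors' size factors. That scaling lowers all changes within a genotype alike, those of the 10 genes included.

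**Figure D2:**
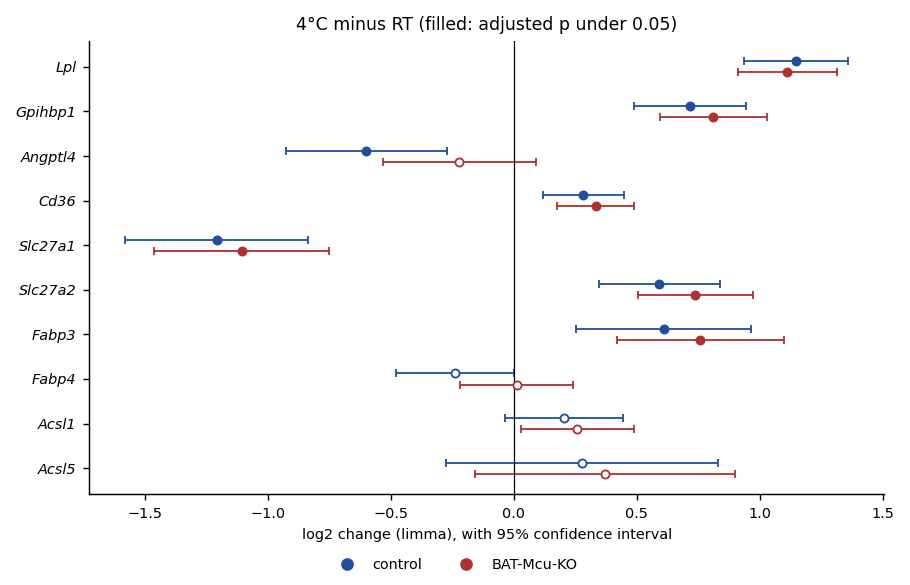
Log2 change between 4°C and RT (horizontal axis, with its 95% confidence interval) of the 10 genes in control and BAT-Mcu-KO mice, filled where the adjusted p was under 0.05. Lpl has the highest value in both genotypes (1.15 and 1.11) and Slc27a1 the lowest (-1.21 and -1.11).

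Lpl encodes the lipase itself (chromosome 8, 68880491 to 68907448, GRCm38). At RT its normalised counts in control mice ran from 53732 to 66340, with a median of 60997. At 4°C the 5 control mice had 153602, 116348, 130870.2, 124933 and 142898. Every mouse at 4°C was thus above every mouse at RT. In knockout mice Lpl ran from 59659 to 79383 at RT (median 62426) and from 118074 to 149960 at 4°C (median 145773). The groups again did not overlap. Mean levels were 2.22-fold higher in the cold in control and 2.16-fold higher in knockout mice. On the log2 scale the change was 1.15 (SE 0.10, adjusted p = 1.74e-09) in control and 1.11 (SE 0.10, adjusted p = 1.37e-09) in knockout mice. Per kb of principal transcript, Lpl was at 32498 ± 3577 normalised counts in control mice at 4°C, against 12981 ± 1063 for Cd36 (SD, n = 5). The distance between the 2 genes depends on the length chosen.

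Gpihbp1 encodes the endothelial protein that anchors the lipase on the capillary wall (chromosome 15, 75596628 to 75599481). Control mice at RT had 1386 to 2125 normalised counts (median 1592). Those at 4°C had 2917, 2355, 2485, 3470 and 2582. Knockout mice had 1353 to 1781 at RT (median 1550.1) and 2519 to 3340 at 4°C (median 2705). Gpihbp1 was higher in each mouse at 4°C than in any at RT of the same genotype. The change was 0.72 (SE 0.11, adjusted p = 8.33e-06) in control and 0.81 (SE 0.11, adjusted p = 7.50e-07) in knockout mice, a ratio of means of 1.64 and 1.76.

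Of 10 markers of endothelial cells, 5 were called higher and 2 lower in control mice in the cold, 5 higher and 1 lower in knockout mice, and none was at 0 in all mice of a group. Of all genes, 46.0% were called in control and 43.3% in knockout mice. Pecam1, Kdr, Cldn5, Esam and Robo4 were higher in both genotypes, with changes of 0.60 (Robo4) to 1.80 (Cldn5) in control mice, a span that holds the 0.72 of Gpihbp1. Tie1, an endothelial receptor kinase, went the other way, with -0.69 and -0.90, and Tek, its relative, did not pass the test, with 0.01 and -0.14. The markers thus did not share a direction. Their summed normalised count ran from 6187 to 7615 in control mice at RT, against 8964 to 14672 at 4°C, and from 5969 to 7656 and from 8301.5 to 13066 in knockout mice. The part of these markers in the result was not tested. In bulk tissue, more cells of a type and more RNA per cell cannot be told apart.

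Angptl4 encodes a secreted inhibitor of the lipase and is a known target of PPARs and of fasting (chromosome 17, 33773750 to 33781830). In control mice it ran from 2546 to 3807 normalised counts at RT (median 3413). At 4°C the 5 values were 2721, 1973, 1947, 2371 and 1861, and 4 of them were below every RT value. The change was -0.60 (SE 0.16, adjusted p = 0.00304), to 0.66 of the mean at RT. Knockout mice had 2029 to 3483 at RT (median 3198) and 1930 to 3821 at 4°C (median 2550.2), with wide overlap. Their change of -0.22 (SE 0.15, adjusted p = 0.252) did not pass the test, and it ran from -0.34 without the lowest RT mouse to -0.14 without the lowest cold mouse when 1 mouse at a time was left out. With quantile normalisation it was -0.38 and did pass (adjusted p = 0.0361). The difference between the genotypes in this change is given with the genotype comparisons.

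The transcript ratio of the lipase to its inhibitor, taken within each mouse, was higher in the mice at 4°C than in the other mice at RT. Angptl4 itself was called in control mice only. The ratio of Lpl to Angptl4, each per kb of transcript, ran from 12.4 to 18.9 in control mice at RT (median 13.8) and from 42.4 to 61.7 at 4°C (median 47.4). In knockout mice it ran from 14.7 to 24.4 (median 16.2) and from 30.5 to 62.5 (median 42.4). The RT and 4°C mice did not overlap in either genotype. The ratio of Lpl to Gpihbp1 moved less, from a median of 7.59 at RT to 10.6 at 4°C in control mice and from 8.53 to 11.0 in knockout mice. These ratios were chosen after the values of the genes were seen and are given as a description.

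Cd36 encodes the scavenger receptor that takes up long-chain fatty acids (chromosome 5, 17781690 to 17888801), and its promoter stretch is printed above. Control mice had 33831 to 38467 normalised counts at RT (median 36287) and 48067, 46682, 45209, 40624 and 40037 at 4°C. Knockout mice had 31012 to 36097 at RT (median 34774) and 39338 to 47866 at 4°C (median 42781). The shift was small but without overlap in both genotypes. Cd36 was 1.22-fold higher in the mean in control mice (change 0.28, SE 0.08, adjusted p = 0.00514) and 1.26-fold higher in knockout mice (change 0.33, SE 0.08, adjusted p = 0.000886). With 75th percentile scaling the change in control mice was 0.17 and did not pass the test (adjusted p = 0.0795).

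The 2 fatty acid transport proteins moved in opposite directions. Slc27a1 encodes FATP1, a transport protein with acyl-CoA synthetase activity (chromosome 8, 71568882 to 71587302). At RT the control mice had 2913 to 4413 normalised counts (median 3716), and at 4°C 2868, 1345, 2080, 1209.9 and 1053. The highest cold mouse came close to the lowest at RT, and the other 4 were well below. Knockout mice ran from 3364 to 4490 at RT (median 3930) and from 1430 to 2444 at 4°C (median 1711), with a wide gap. The change was -1.21 (SE 0.18, adjusted p = 5.35e-06) in control and -1.11 (SE 0.17, adjusted p = 9.78e-06) in knockout mice, to 0.46 and 0.47 of the mean at RT.

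Slc27a2 encodes FATP2, which also activates very long-chain fatty acids (chromosome 2, 126552407 to 126588243). Control mice had 3135 to 4470 normalised counts at RT (median 3982), and 6040, 4688, 6497, 5710 and 6691 at 4°C. Knockout mice had 3260 to 4709 at RT (median 3864) and 5370 to 7764 at 4°C (median 6854). Within a genotype, each mouse at 4°C was above each at RT. The change was 0.59 (SE 0.12, adjusted p = 0.000217) in control and 0.74 (SE 0.11, adjusted p = 8.56e-06) in knockout mice. Part of its first exon overlaps an exon of the antisense gene Gm26697, and as the reads were counted without strand, reads of this stretch cannot be given to either gene.

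At RT the 2 transport protein genes were at about the same transcript level per kb of principal transcript. The ratio of Slc27a2 to Slc27a1 was 1.03 ± 0.231 in control and 1.00 ± 0.210 in knockout mice (SD, n = 6 each). Their principal transcripts are 2918 and 2795 bp long, while all their exons cover 3754 and 5835 bp. The similar level thus depends on the length chosen. At 4°C the ratio was 3.79 ± 1.56 (n = 5) and 3.68 ± 1.06 (n = 6). The lowest ratio at 4°C, 2.02 in control and 2.11 in knockout mice, was above the highest at RT, 1.47 and 1.28. This ratio too was chosen after the values were seen.

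**Figure D3:**
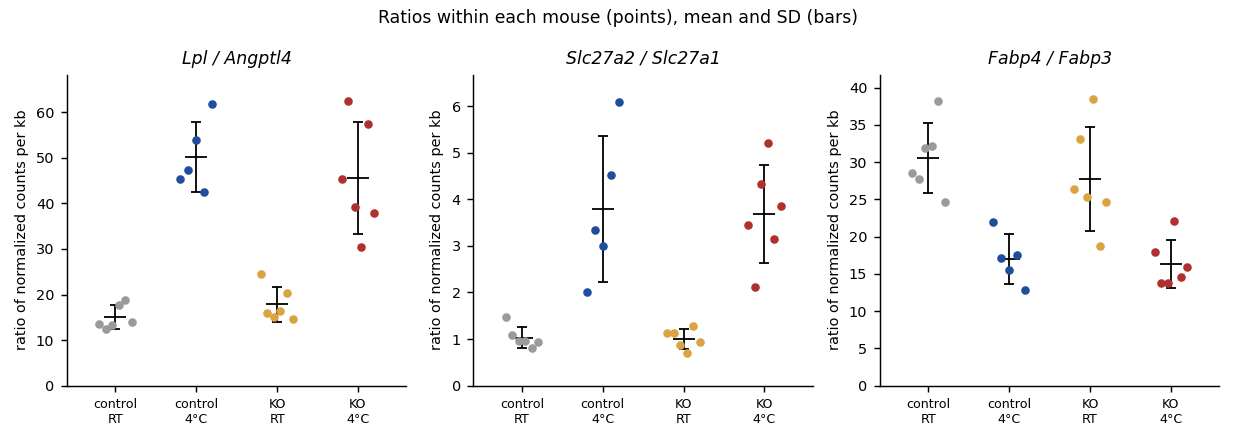
Ratios of normalised counts per kb within each mouse (linear axes from 0) for Lpl over Angptl4, Slc27a2 over Slc27a1 and Fabp4 over Fabp3, with the mean and SD of each group. The first and second ratios are higher in every mouse at 4°C than at RT within a genotype, and the third is lower, with overlap in BAT-Mcu-KO mice only.

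Of the binding proteins, Fabp3 encodes the form best known from heart and muscle and found in brown fat (chromosome 4, 130308595 to 130315463). Control mice had 1528 to 3346 normalised counts at RT (median 2008) and 2986, 3290.1, 3277, 3033 and 4086 at 4°C. Knockout mice had 1762 to 2910.1 at RT (median 2000.3) and 2633 to 4480 at 4°C (median 3649). In control mice 1 of the 5 cold values was above all at RT, and in knockout mice 5 of 6. The change was 0.61 (SE 0.17, adjusted p = 0.00515) in control and 0.76 (SE 0.16, adjusted p = 0.000532) in knockout mice.

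Muscle is another source of Fabp3 transcript, and muscle markers differed widely between mice. Their summed normalised count ran from 32.8 to 8530 in control mice at RT, against 14.9 to 44719 at 4°C, and from 21.4 to 62909.5 and 56.7 to 11332 in knockout mice. None of the 12 was called in the cold in either genotype by limma, none had an unadjusted p under 0.05, and none was at 0 in all mice of a group. With the muscle sum as a covariate, the Fabp3 change was 0.61 in control (adjusted p = 0.00431) and 0.74 in knockout mice (adjusted p = 0.000573). Without the 5 mice over 30000 it was 0.51 in control mice and missed the threshold (adjusted p = 0.0584), with 3 control mice left at 4°C, and 0.69 in knockout mice (adjusted p = 0.0151). Of the 10 genes, 6 were then called in control and 6 in knockout mice. Over all 14651 genes that fit called 2779 higher and 2868 lower in control mice, against 3269 and 3466 in the main fit. In knockout mice it called 2408 and 2300, against 3136 and 3213. Fabp3 also has a near-identical processed copy, Fabp3-ps1, which held 51.8 to 193.8 normalised counts, and the ratio of Fabp3 to this copy stayed between 23.1 and 33.6 in all mice. Reads of the copy cannot always be told from those of Fabp3, so the Fabp3 level is uncertain. Part of the exons of Fabp3 also overlaps Zcchc17 (81 bp) and Gm10570 (80 bp) on the other strand.

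Fabp4 encodes the adipocyte fatty acid binding protein and was the most abundant of the 10 per kb of principal transcript in each group (chromosome 3, 10204088 to 10208576). Control mice had 60848 to 90380 normalised counts at RT (median 65252) and 71411, 61465, 55262, 58262 and 57150.2 at 4°C. Knockout mice had 55485 to 73937 at RT (median 60115) and 57123 to 69082 at 4°C (median 62050). All groups overlapped. The change was -0.24 in control mice (SE 0.12, 95% interval -0.48 to 0.00, adjusted p = 0.0943) and 0.01 in knockout mice (SE 0.11, interval -0.22 to 0.24, adjusted p = 0.939). Without the control mouse at 4°C with the highest value (71411) the change in control mice was -0.30 and passed the test (adjusted p = 0.0460). Per kb, Fabp4 exceeded Fabp3 by a median of 30.2-fold at RT and 17.2-fold at 4°C in control mice, and by 25.9-fold and 15.3-fold in knockout mice.

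Neither synthetase passed the test in either genotype. Acsl1 encodes the main long-chain acyl-CoA synthetase of adipocytes (chromosome 8, 46471037 to 46536051). Control mice had 26217 to 34160 normalised counts at RT (median 31924) and 43275, 29977, 41408, 26253 and 39650 at 4°C. The cold mice thus fell on both sides: 3 were above every RT mouse and 2 were within the RT range. Knockout mice had 26095 to 32761 at RT (median 30475) and 30716 to 39203 at 4°C (median 36876). The change was 0.20 (SE 0.12, 95% interval -0.04 to 0.44, adjusted p = 0.159) in control and 0.26 (SE 0.11, interval 0.03 to 0.49, adjusted p = 0.0615) in knockout mice. In control mice it was 0.31 without the lowest cold mouse (adjusted p = 0.0232). In knockout mice it passed with edgeR (adjusted p = 0.0491), with DESeq2 (adjusted p = 0.0425), with 2 groups only in the fit (adjusted p = 0.0121) and without the lowest cold mouse (adjusted p = 0.0360). Part of its exons overlaps the antisense model Gm45244.

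Acsl5 encodes a synthetase of the outer mitochondrial membrane and the endoplasmic reticulum (chromosome 19, 55251938 to 55297720). Control mice had 2300 to 5189 normalised counts at RT (median 4075) and 3726, 8936, 5760, 4325 and 2496 at 4°C. Knockout mice had 1879 to 5234 at RT (median 3865) and 3008 to 6032 at 4°C (median 4855). The coefficient of variation was 22.9% to 48.9% in the 4 groups. The change was 0.28 (SE 0.27, 95% interval -0.27 to 0.83, adjusted p = 0.416) in control and 0.37 (SE 0.26, interval -0.16 to 0.90, adjusted p = 0.257) in knockout mice, intervals that hold both no change and a rise as large as that of Slc27a2. Single mice moved these values: in control mice the change was 0.04 without the highest cold mouse and 0.50 without the lowest, and in knockout mice it ran from 0.19 to 0.50. Part of its exons overlaps Zdhhc6 on the other strand.

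The remaining marker lists were read beside these values, since macrophages also express Lpl, Cd36 and Fabp4. For the counts that follow, 46.0% of all genes were called in the cold in control and 43.3% in knockout mice. Of the 9 macrophage markers in the table, 4 were called higher in control and 6 in knockout mice in the cold and 0 lower. Their summed normalised count was 1075 to 1390 at RT and 1387 to 1954 at 4°C in control mice, and 794 to 1434 and 1617 to 2025 in knockout mice. Of 10 markers of brown adipocytes and adipocytes, 3 were higher and 6 lower in control and 2 higher and 3 lower in knockout mice. In control mice their sums were 155106 to 220888 at RT and 230679 to 285300 at 4°C (means 177519.7 and 262723.7). In knockout mice they were 154591 to 171581 and 252324 to 280334 (means 164471.5 and 268081.9). Ucp1 is in these sums, with means of 63858.5 at RT and 165204.6 at 4°C in control mice, and 56906.9 and 157765.3 in knockout mice. Of 8 fibroblast and mural markers, 2 were lower in control mice, and 2 were higher and 1 lower in knockout mice, with sums of 8659 to 14505 at RT and 9807 to 15529 at 4°C over both genotypes. No marker of these lists was at 0 in all mice of a group. Their part in the results was not tested.

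The second question was whether these genes differed between the genotypes. All knockout mice and no control mice carried Ucp1-Cre, so loss of Mcu and the transgene cannot be told apart here. At RT 0 of the 10 genes were called by limma, against 0.0478% of all genes, and 0 had an unadjusted p under 0.05. The changes, knockout minus control, ran from -0.20 for Fabp4 (SE 0.11, 95% interval -0.43 to 0.03, adjusted p = 0.945) to 0.13 for Lpl (SE 0.10, interval -0.07 to 0.33, adjusted p = 0.983). edgeR and DESeq2 also called 0, with Fabp4 alone under an unadjusted p of 0.05 in both. At 4°C 0 of the 10 were called, against 0.0751% of all genes, and 0 had an unadjusted p under 0.05 with limma, edgeR or DESeq2. The changes ran from -0.03 for Cd36 (SE 0.08, interval -0.19 to 0.14, adjusted p = 0.973) to 0.26 for Angptl4 (SE 0.16, interval -0.06 to 0.59, adjusted p = 0.785). For every one of the 10 genes the genotypes overlapped at both temperatures, and without the 5 mice over 30000 muscle counts 0 were called in either comparison.

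The intervals show what size of difference these data leave room for. Over the 10 genes, the widest at RT reached from -0.61 to 0.44 and the widest at 4°C from -0.55 to 0.56, both for Acsl5. The narrowest were those of Cd36, from -0.23 to 0.08 at RT, with -0.19 to 0.14 at 4°C.

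The third comparison was the difference between the genotypes in the change by cold. It was called for 0 of the 10 genes, for 0% of all genes by limma, and 0 of the 10 had an unadjusted p under 0.05 with limma, edgeR or DESeq2. It ran from -0.04 for Lpl (SE 0.14, 95% interval -0.33 to 0.26, adjusted p = 0.982) to 0.38 for Angptl4 (SE 0.22, interval -0.07 to 0.83, adjusted p = 0.852). Angptl4 was thus called in control and not in knockout mice, while the difference between the genotypes itself did not pass the test.

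**Figure D4:**
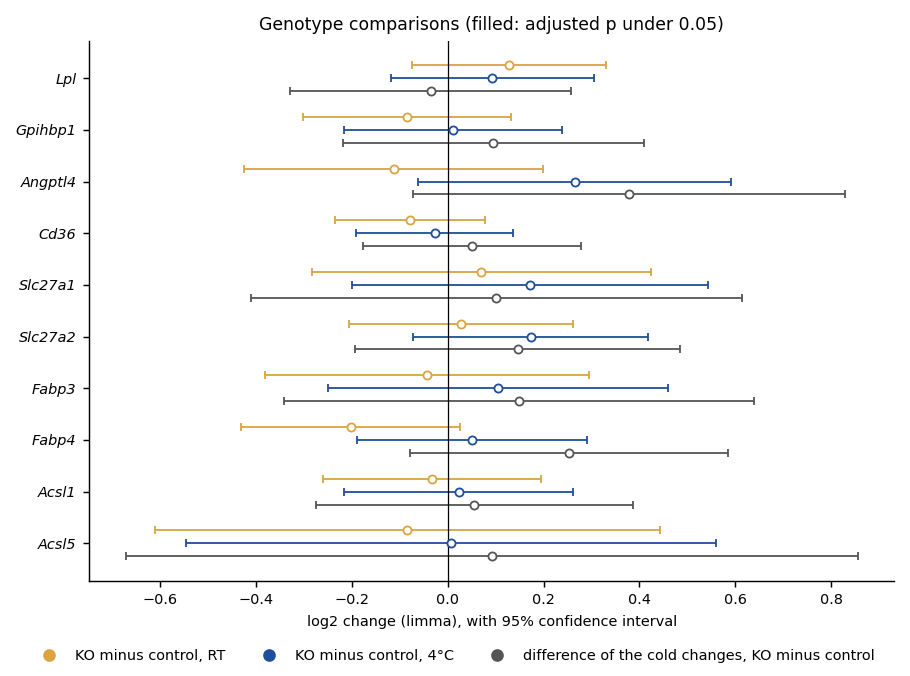
Log2 differences of the 10 genes between BAT-Mcu-KO and control mice at RT, at 4°C, and in the change by cold (horizontal axis, with 95% confidence intervals; no point is filled, as no adjusted p was under 0.05). Each interval includes 0, and the widest are those of Acsl5.

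Around these 10 genes, a list of 54 others of the route was read from the same fit, of which 44 were in the table. In the cold 22 of the 44 were called in control mice, 11 higher and 11 lower, and 22 in knockout mice, again 11 and 11. The median change was 0.04 and -0.05, and 19 were called in both genotypes in the same direction, 10 higher and 9 lower. Over all genes 46.0% and 43.3% were called.

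Among genes that mature, hold or inhibit lipases, 6 of 13 were called in control mice, 3 higher and 3 lower, and 7 in knockout mice, 4 higher and 3 lower. Lipg encodes endothelial lipase, a relative of LPL that prefers phospholipid. It ran from 13.5 to 36.8 normalised counts in control mice at RT, against 97.7 to 147.7 at 4°C, a change of 2.30 (SE 0.25, adjusted p = 4.45e-08), with 1.92 in knockout mice (SE 0.24, adjusted p = 3.83e-07). Sdc4, a heparan sulphate proteoglycan of the cell surface, was at 2336 to 4419 in the same mice at RT and at 12165 to 15282 at 4°C, a change of 2.00 (SE 0.14, adjusted p = 1.82e-11), with 1.74 in knockout mice (SE 0.13, adjusted p = 8.95e-11). Pcsk5, a proprotein convertase that can cleave lipases, was higher by 0.81 and 0.76. Lmf1, the chaperone that LPL needs to mature in the endoplasmic reticulum, changed by -0.43 and -0.31 (adjusted p = 0.000105 and 0.00243). The lipase and its chaperone thus differed in direction. Apoc2, the cofactor that activates LPL and is made by liver, was near the limit of detection, at 0.76 to 7.95 normalised counts in control mice at RT, 0 to 6.41 at 4°C, 1.73 to 8.96 in knockout mice at RT and 7.32 to 19.7 at 4°C. It was called in knockout mice (1.25, SE 0.51, adjusted p = 0.0480) and not in control mice (0.30, SE 0.53, adjusted p = 0.678).

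Of 6 lipoprotein receptors and their partners, 2 were called lower in control and 1 in knockout mice, and 0 higher. Scarb1, the receptor for high density lipoprotein, ran from 755 to 1067 normalised counts at RT, against 384 to 566 at 4°C in control mice, without overlap. Its change was -0.89 (SE 0.12, adjusted p = 1.54e-06), with -1.004 in knockout mice (SE 0.12, adjusted p = 1.24e-07). Vldlr, the receptor that binds very low density lipoprotein and LPL, did not pass the test, with 0.16 in control (95% interval -0.06 to 0.38, adjusted p = 0.243) and -0.07 in knockout mice (interval -0.29 to 0.14, adjusted p = 0.593).

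The other transport and binding genes had 7 of 10 called in control mice, 4 higher and 3 lower, and 6 in knockout mice, 3 and 3. Mfsd2a, a carrier of lysophosphatidylcholine, had the largest change of the list. It was at 25.8 to 763 normalised counts in control mice at RT and 3547 to 4879 at 4°C, a change of 4.60 (SE 0.58, adjusted p = 4.06e-07), and it changed by 3.85 in knockout mice (SE 0.55, adjusted p = 2.92e-06). Cav1, which forms caveolae, was higher by 1.15 and 1.08, while its partner in caveolae, listed under the older symbol Ptrf for Cavin1, changed by -0.79 and -0.87. Zdhhc5, a palmitoyltransferase that acts on CD36, was higher by 0.80 and 0.77. Fabp5, the epidermal fatty acid binding protein, changed by -0.75 and -0.60. The 2 main parts of the caveolar coat thus differed in direction in both genotypes.

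In the activation group 1 of 4 genes was called higher and 1 lower in each genotype. Acsl4, a synthetase that prefers arachidonate, was higher by 0.68 and 0.43 (adjusted p = 0.000797 and 0.0192), and Dbi, the acyl-CoA binding protein, changed by -0.60 and -0.39 (adjusted p = 0.00117 and 0.0218).

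Of 11 transcription and paracrine factors tied to this route, 3 were called higher and 2 lower in control mice, and 3 and 3 in knockout mice. Pparg, the nuclear receptor that drives adipocyte genes, had 2715 to 3648 normalised counts in control mice at RT and 4019 to 5025 at 4°C, a change of 0.51 (SE 0.11, adjusted p = 0.000643), with 0.44 in knockout mice (adjusted p = 0.00196). Ppara, its relative that drives fatty acid oxidation, changed by -0.58 and -0.83 (adjusted p = 0.0117 and 0.000425). Cebpa, an adipocyte transcription factor, had 778 to 1238 normalised counts at RT and 101.1 to 194.7 at 4°C in control mice, a change of -2.64 (SE 0.20, adjusted p = 1.09e-10), with -2.23 in knockout mice. Cebpb was higher by 0.95 and 0.92 (adjusted p = 0.0133 and 0.0126). Within each of these pairs, the members differed in direction.

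**Figure D5:**
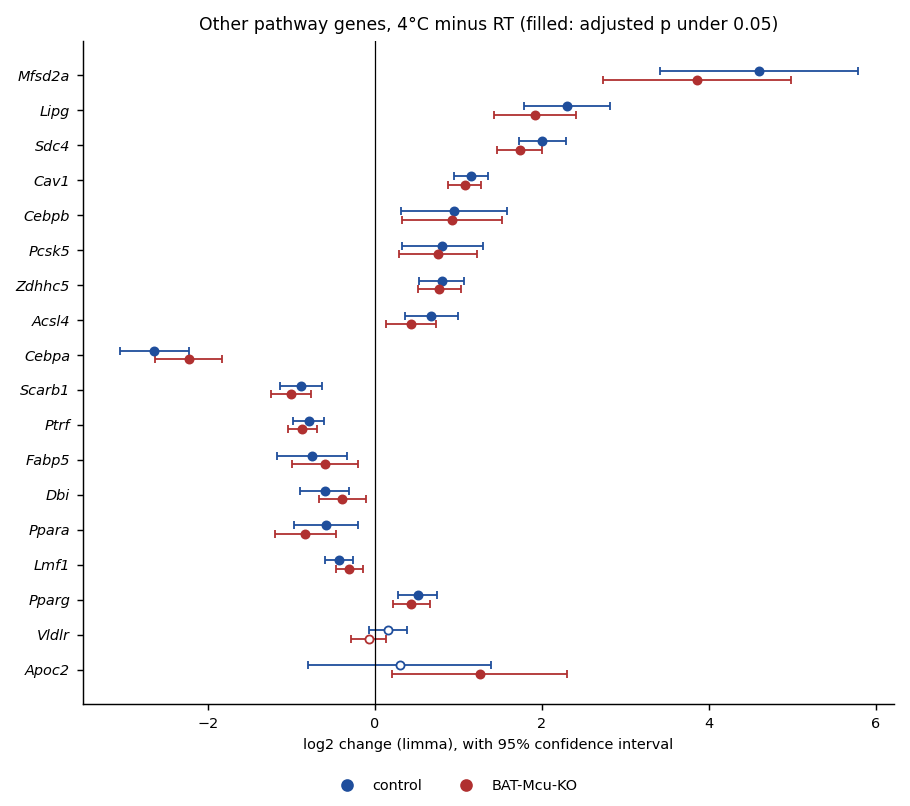
Log2 change between 4°C and RT (horizontal axis, with its 95% confidence interval) of the other genes of the route named here, in control and BAT-Mcu-KO mice, filled where the adjusted p was under 0.05. Mfsd2a has the highest value (4.60 and 3.85) and Cebpa the lowest (-2.64 and -2.23).

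Between the genotypes 0 of these 44 genes were called by limma at either temperature, and 0 for the difference in the change by cold. At an unadjusted p under 0.05 there were 1 at RT, 6 at 4°C and 0 for the difference. Over all 14651 genes limma gave 754, 1023 and 878. edgeR and DESeq2 also called 0 in each of these comparisons, with 0 and 1 genes under an unadjusted p of 0.05 at RT, 5 and 6 at 4°C and 0 for the difference. DESeq2 gave an adjusted p for 41 of the 44 at 4°C and for 43 for the difference. Over all genes it called 13 higher and 7 lower at RT, 12 and 15 at 4°C, and 5 and 23 for the difference.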

How the data were processed

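One library was made per mouse from whole BAT (23 mice, 4 groups), and groups and replicate numbers came from the sample labels. Libraries were made by the Smart-seq2 protocol and read as short paired ends. Alignment by the authors used STAR 2.4.0j and the mm10 assembly, and HTSeq then counted unique exonic reads on either strand. The deposited signal is a count per gene scaled by a DESeq2 size factor per library. It covers the 14651 genes for which 6 or more libraries held 8 or more reads. The authors also deposited fold changes and p-values of their own comparisons, which were not used here. 

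Dividing each column by its fitted value of a single read gave back whole reads, and so the depth (100.0% of values within 0.1 of a whole number). As the table holds normalised values, the test was limma 3.58.1 (R 4.3.3) with a variance trend on log2(normalised count + 1), 4 group means and all 23 mice in 1 fit, with Benjamini-Hochberg adjustment over all genes and a threshold of 0.05. A fold change on this scale understates that of low genes. edgeR 4.0.16 and DESeq2 1.42.0 on the recovered reads were alternatives, as were a pseudocount of 0.5 or 10, a mean normalised count of at least 50, quantile normalisation, 75th percentile and TMM scaling, no trend, fits of the compared groups alone, the replicate number as a block, the muscle marker sum as a covariate and each mouse left out. A fit without the 5 mice over 30000 muscle counts was added after the data were seen. Reads copied by PCR do not each stand for a molecule.

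Positions and transcript lengths came from GENCODE M21 (GRCm38, the assembly of mm10; the authors used GENCODE M7), and promoters from RefSeq. Tables were handled with pandas 2.3.3 under Python 3.11.15 and figures drawn with matplotlib 3.10.9. All 10 genes are named. Of the other genes of the route, those called in both genotypes in the same direction are named, at most the 8 with the largest change in control mice in each direction, as are Pparg, Ppara, Vldlr and Apoc2. A gene that this rule would name is not reported here. For genotype, the lowest and highest of the 10 changes are given. The members, lists and rules were chosen with earlier results of these data known. No 2 libraries of a group agreed within sampling noise.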

Additional observations from a re-analysis of the deposited data

Results flagged for a closer look

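Of the 40 sets of mice (10 genes in 4 groups), 4 held a mouse that stood apart from the rest by Dixon's criterion, which chance meets in about 1 of 20 groups. In BAT-Mcu-KO mice at 4°C, Lpl was lowest in replicate 6 with 118074 normalised counts, against 145032 in the next mouse, and Gpihbp1 was highest in replicate 4 with 3340 against 2814. In BAT-Mcu-KO mice at RT, Angptl4 was lowest in replicate 1 with 2029 against 3069. In control mice at 4°C, Fabp3 was highest in replicate 5 with 4086 against 3290.1. This mouse was among those with over 30000 muscle counts. At RT the highest Fabp3 values were in mice with few muscle counts. Control replicate 6 had 3346 with 32.8 muscle counts, and BAT-Mcu-KO replicate 5 had 2910.1 with 21.4. The changes of Lpl and Gpihbp1 by cold in BAT-Mcu-KO mice kept their call when any single mouse was left out. Without the Angptl4 mouse, the change of Angptl4 by cold in BAT-Mcu-KO mice was -0.34 in place of -0.22, and it was not called in either case.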

How the results depend on the processing

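The number of the 10 genes called by cold stayed within 6 to 9 in control and 6 to 8 in BAT-Mcu-KO mice over all alternatives, and between the genotypes it was 0 in each. Leaving out 1 mouse at a time gave 7 to 8 and 6 to 7. The other genes of the route gave 19 to 23 and 17 to 24 calls. For single genes, the fits with 1 mouse left out kept direction and side of the threshold in 585 values. There, 4 values gained a call and 9 changed sign. In the other alternatives 320 values kept both, and 10 gained a call. Another 2 lost the call, both in control mice: Cd36 with 75th percentile scaling and Fabp3 without the 5 mice over 30000 muscle counts. A further 4 changed sign. Those 4 were small and never called: Fabp4 by cold in BAT-Mcu-KO mice, -0.026 with quantile normalisation and -0.039 with 75th percentile scaling (-0.02 to 0.063 with 1 mouse left out), Cd36 between genotypes at 4°C, 0.001 with 75th percentile scaling (-0.062 to 0.004), and Lpl in the difference of the cold changes, 0.022 with that scaling (-0.084 to 0.019). Fabp4 in control mice was called with quantile normalisation (-0.37, adjusted p = 0.00258) and 75th percentile scaling (-0.35, adjusted p = 0.0193). The cause of these shifts was not tested. The labels do not say what the replicate numbers stand for, and the main fit took them as names only. Between the genotypes at 4°C, deviations of same-numbered animals had a mean correlation of 0.16, with pairs from -0.02 to 0.42. At RT the mean was 0.02, with pairs from -0.17 to 0.32. Whether same-numbered animals shared a litter or a day was not tested. With the number as a replicate block, 7 of the 10 genes were called by cold in each genotype, Acsl1 in BAT-Mcu-KO mice being added (0.26, adjusted p = 0.0420). A fit of the compared groups alone was not run for the difference of the cold changes, which needs all 4 groups. Each gene had at least 886 reads in every mouse.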
